A study of Mus musculus with 2 samples.

Results

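The Slc25 family comprises the mitochondrial carriers, and its members were taken as every row of the deposited gene tables whose symbol is Slc25a followed by digits. This gave 44 of 21113 genes, of which 34 reached a deposited value of 1 in one or both libraries and are called measured here. The value is FPKM-like, that is, scaled for gene length and library size, so levels can be compared between genes. The tables come from polyadenylated RNA of mammary glands taken from C57BL/6 mice 6 weeks after birth, with 1 wild-type library and 1 library labelled Mir212/132ILN/ILN. In the latter an IRES-LacZ-Neo (ILN) cassette sits in both copies of the locus that encodes miR-212 and miR-132. The labels give neither the number of animals behind a library nor the purity of the dissected tissue.

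Each genotype had 1 library, so a difference given here compares 2 libraries and has no replicate check. The libraries held 46133338 (wild type) and 42953129 (ILN/ILN) fragments assigned to genes, and 0.407% and 0.438% of them fell on the Slc25 members. A ratio is that of the fragments of a gene, ILN/ILN over wild type, each divided by its library total, and is followed by an exact conditional (Clopper-Pearson) 95% interval that covers counting error alone. The sources used here do not say whether both reads of a pair would be counted, in which case the intervals would be too narrow. The libraries stood apart in their cell markers. A log2 fragment ratio of 0.32 either way is used as a threshold here. All 8 measured genes of a luminal epithelium list were lower in ILN/ILN past this threshold, against 15.7% of all measured genes. Each of them reached a value of 1 in wild type alone, so its direction was set by that minimum. Summed values of the list were 46.2 and 1.09. Krt8 had 742 fragments in wild type and 0 in ILN/ILN, and Elf5 had 51 and 0. The defining epithelial markers of a mammary gland were thus nearly absent from the library labelled ILN/ILN. Summed values were also lower for lists of B cell genes (193 and 35.5), T cell genes (75.1 and 25.7), neutrophil genes (330 and 68.1), macrophage genes (1975 and 1289) and erythroid genes (14464 and 6702). White adipocyte genes summed to 87880 and 79307, although 9 of 12 had ratios above 1, since the abundant Cfd was at 33952 and 25466. Fibroblast genes to 4339 and 4449 and endothelial genes to 133 and 158. In such bulk tissue fewer cells of a type and less RNA per cell cannot be told apart, and the part of this difference in any carrier's ratio was not tested.

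Mitochondrial carriers are small proteins of the inner mitochondrial membrane, built from repeats of paired membrane helices, that move metabolites, nucleotides, cofactors and ions between cytosol and matrix. Most of them exchange one solute for another, so that ADP enters as ATP leaves, and citrate leaves for lipid synthesis in exchange for malate. A gland at this age is embedded in a fat pad, and in adipocytes citrate export feeds fatty acid synthesis while import of acylcarnitines feeds fatty acid oxidation.

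The microRNAs of the targeted locus share a seed, bases 2 to 8 of the mature strand, and are shown here because a transcript with a matching site is a candidate for direct repression by either one. The mature 3p sequences, from RefSeq on build GRCm38.p6 (chromosome 11, plus strand), have the seed in capitals.
mmu-miR-132-3p: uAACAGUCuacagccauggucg
mmu-miR-212-3p: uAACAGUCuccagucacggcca

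The 7 letters that pair with this seed, GACTGTT, were looked for in the 3′ untranslated regions of GENCODE M21, taking the longest one per gene. Of 34 measured carriers, all of them searched, 3 held the site once (8.82%), against 1424 of 11285 other measured genes (12.6%). These carriers were Slc25a12, Slc25a15 and Slc25a48, and each site is shown with its flanks, 5′ to 3′ along the transcript, with the paired letters in capitals.
Slc25a12 (GRCm38, chr2:71271713-71271740, minus strand): tctttattgttctggGACTGTTgctgag
Slc25a15 (GRCm38, chr8:22376290-22376317, minus strand): ggcttcctgcaggaaGACTGTTcaaagc
Slc25a48 (GRCm38, chr13:56473701-56473728, plus strand): ccctccatgattgcaGACTGTTtctctc

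The 3 carriers with a site differed in direction. Slc25a12 was lower in ILN/ILN, at 5.96 in wild type and 4.77 in ILN/ILN. Slc25a15 was level, at 2.56 and 2.60. Slc25a48 was higher, at 0.535 and 1.09. A match in sequence is a description and does not show that the microRNA acts on the transcript. The sites of Slc25a12 and Slc25a48 start at bases 3430 and 1795 of the searched regions. The gene lengths behind their values are shorter, at 2850 and 1424, so whether the counted transcripts hold these sites is not known. Over all other measured genes the median log2 fragment ratio was 0.06 with a site and 0.01 without. Among the measured carriers it was 0.02 for the 3 with a site and 0.11 without. The length of the searched regions was not taken into account.

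Measured carriers spanned values from 0.535 to 679 in wild type, and a few of them made up most of the family. The citrate carrier gene Slc25a1 had the highest level in both libraries, and it alone made up 30.4% of the summed carrier value in wild type and 29.2% in ILN/ILN. Slc25a1, Slc25a5, Slc25a4, Slc25a39 and Slc25a3 held ranks 1 to 5 in that order in both libraries and together made up 68.5% and 66.1% of the sum. Summed over the 44 members, the value was 2229 in wild type and 2350 in ILN/ILN. In wild type 10 members had a value of at least 50, another 10 lay between 10 and 50, and 13 between 1 and 10. Exact 95% Poisson intervals from fragments were compared for the 33 pairs of neighbours in the order of measured members. In 14 pairs in wild type and 15 in ILN/ILN the lower bound of the first did not exceed the upper bound of the next. This alone does not show that the order of a pair is unresolved. The wild-type count includes the pair of Slc25a25 and Slc25a45. There Slc25a25 was placed by its deposited value of 11.3, while its estimate from fragments was 6.26, against 10.7 for Slc25a45.

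**Figure D1:**
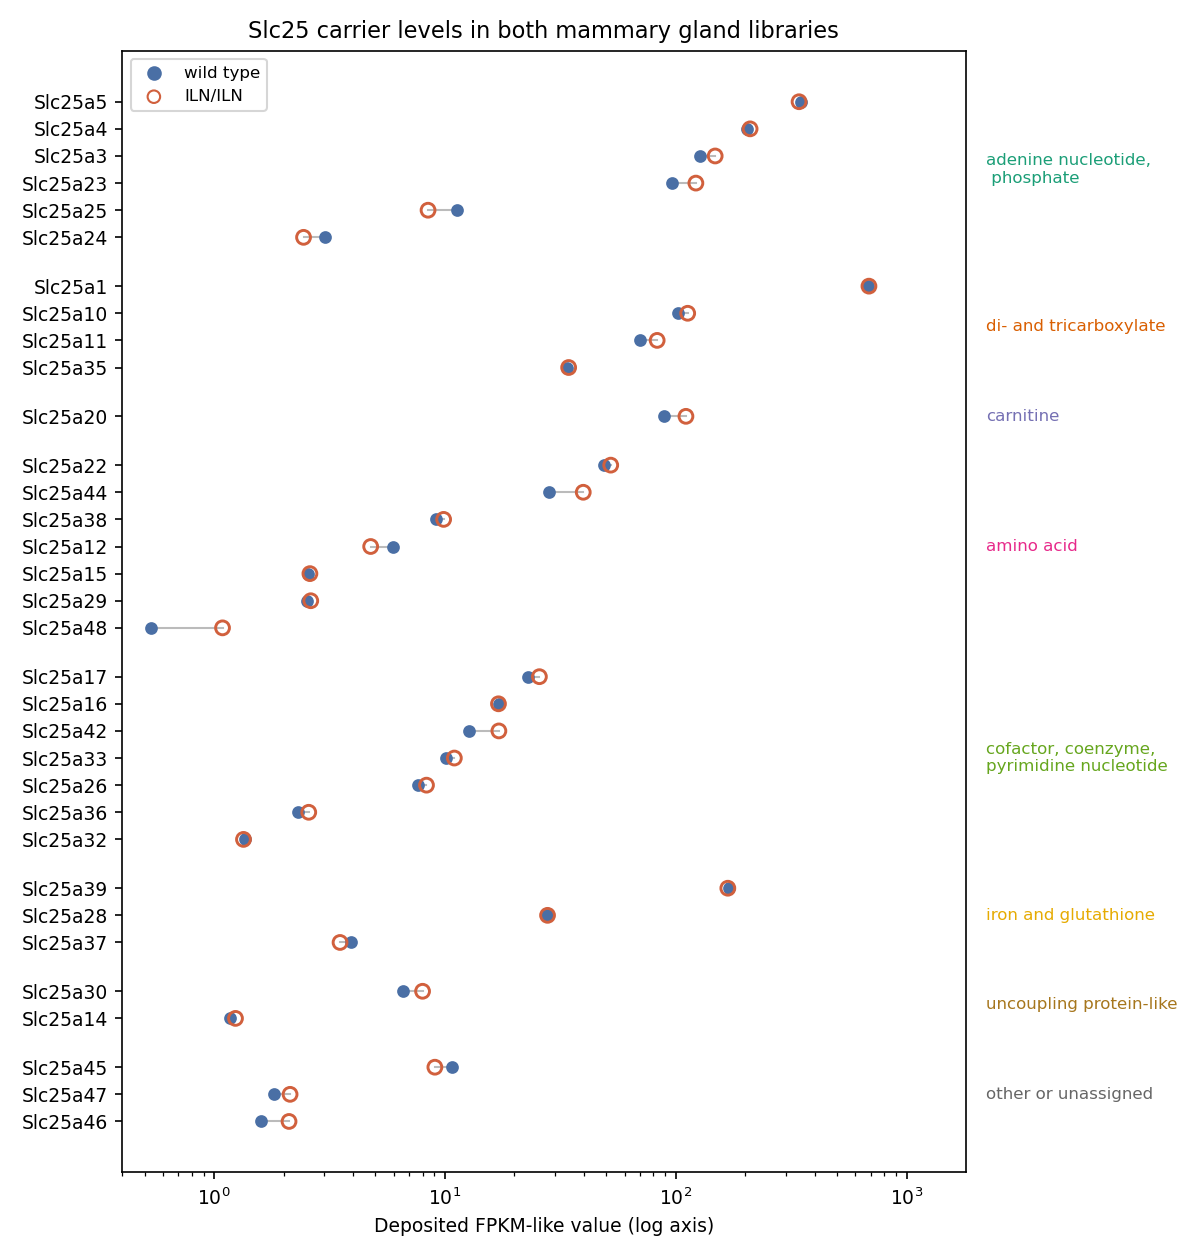
Deposited FPKM-like values (log axis) of 33 measured Slc25 carriers, grouped by the kind of substrate, with wild type in filled blue and ILN/ILN in open orange. Slc25a1 is the highest in both libraries, at 679 and 687, and a grey line joins the values of each gene.

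No carrier differed by as much as 1.5-fold on the scale of value + 1, which is the scale used for calls here. Among all 11556 measured genes 1.9% passed this fold in the higher direction and 5.39% in the lower one, and among the 34 carriers 0 passed either way. The log2 ratios of (value + 1) of the carriers lay between -0.38 (Slc25a25) and 0.47 (Slc25a44). On fragments, past the log2 threshold of 0.32, 6 of 34 carriers were higher in ILN/ILN, against 12.1% of all measured genes, and 1 was lower, against 15.7%. The 6 were Slc25a23, Slc25a25, Slc25a42, Slc25a44, Slc25a46 and Slc25a48, and the lower one was Slc25a12. Slc25a48 passed the expression minimum through its ILN/ILN value alone.

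**Figure D2:**
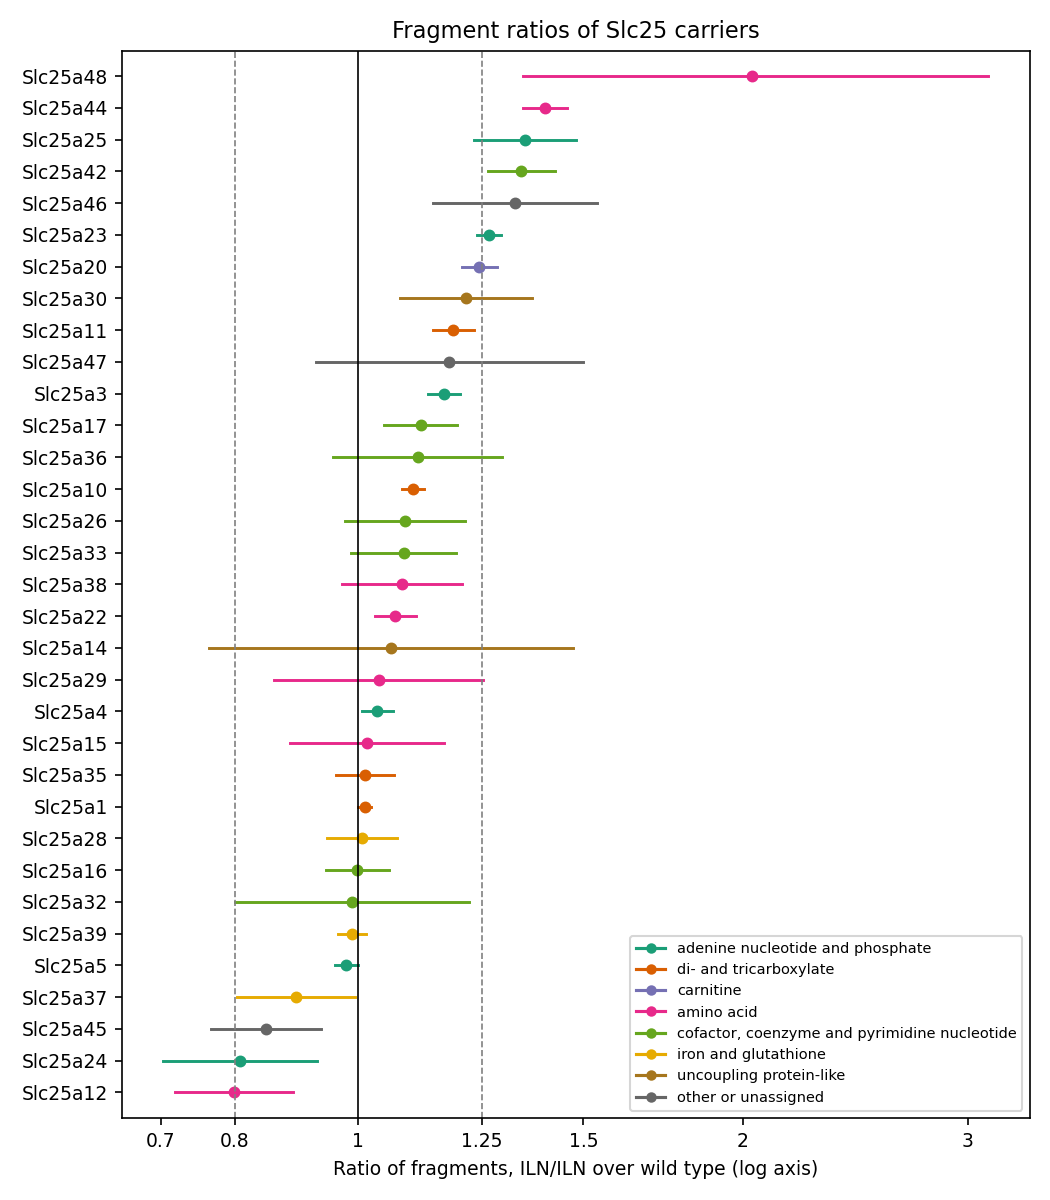
Ratios of fragments, ILN/ILN over wild type (log axis), of 33 measured carriers, with 95% counting intervals as lines and colours for the kind of substrate. Dashed lines mark the log2 threshold of 0.32 either way, and 26 of the 33 points lie between them.

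The adenine nucleotide and phosphate carriers, which supply ATP synthase with its substrates, included 3 of the most abundant members. Slc25a5 (Ant2), the exchanger of ADP and ATP found in most tissues, was at 349 in wild type and 342 in ILN/ILN, a ratio of 0.978 (0.959 to 0.998). Slc25a4 (Ant1), the form typical of heart and muscle, was at 203 and 210 (1.03; 1.01 to 1.06). Levels of this pair were thus nearly the same in both libraries. Per length, Slc25a5 had 1.72 times the fragments of Slc25a4 in wild type (1.68 to 1.77) and 1.63 times in ILN/ILN (1.59 to 1.67). The testis form Slc25a31 (Ant4) had 2 fragments and 1 fragment. These genes are close in sequence and have processed copies in the genome, and the sources used here do not say how reads matching several places were counted.

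The phosphate carrier Slc25a3, which brings in the phosphate for ATP synthesis, was higher in ILN/ILN. It was at 127 and 148, with 8865 and 9625 fragments (1.17; 1.13 to 1.20). The ATP-Mg/phosphate carriers adjust the adenine nucleotide pool of the matrix under control of calcium. Slc25a23 (gene identifier 66972), their most abundant form here, was at 96.5 in wild type and 122 in ILN/ILN, with 15475 and 18233 fragments, a ratio of 1.27 (1.24 to 1.29). Slc25a24 went the other way, at 3.02 and 2.44 with 485 and 365 fragments (0.808; 0.704 to 0.928). Within this pair the level of Slc25a23 was 32.0 times that of Slc25a24 in wild type (29.2 to 35.1) and 50.1 times in ILN/ILN (45.1 to 55.7), and these intervals did not overlap. Slc25a41 had 0 fragments in wild type and 1 in ILN/ILN.

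Slc25a25 (gene identifier 227731), another carrier of ATP-Mg and phosphate, lay on opposite sides of 1 by value and by fragments. Its deposited value was 11.3 in wild type and 8.45 in ILN/ILN, a log2 ratio of (value + 1) of -0.38. Its fragments were 837 and 1052, which is higher in ILN/ILN, with a ratio of 1.35 (1.23 to 1.48). The deposited value is the larger of an original estimate, made from the fragments, and a derived estimate. For Slc25a25 the original estimates were 6.26 and 8.45 and the derived ones 11.3 and 7.55, so that the wild-type value came from the derived and the ILN/ILN value from the original estimate. The table lists 3 isoforms for this gene, 2 of them measured. It was the only one of the 34 measured carriers whose libraries used different estimates.

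**Figure D3:**
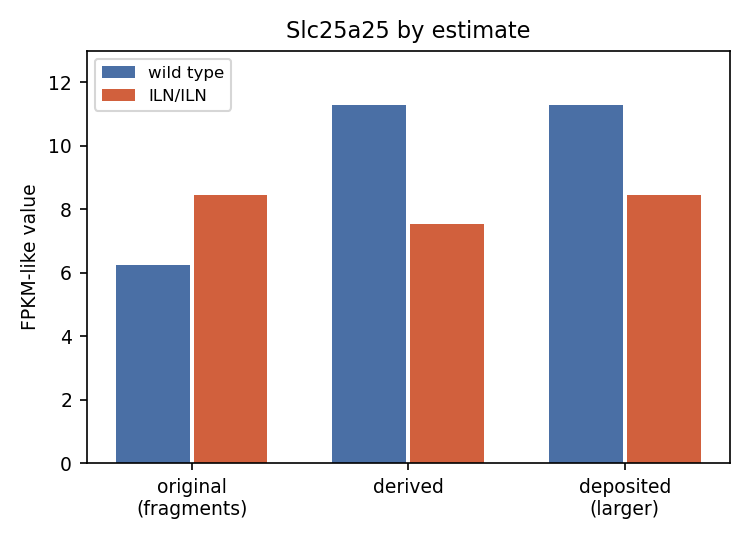
FPKM-like value of Slc25a25 in the wild-type (blue) and ILN/ILN (orange) libraries by the original estimate, the derived estimate and the deposited value, which is the larger of both. The original estimate is 6.26 and 8.45, whereas the deposited value is 11.3 and 8.45.

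Carriers of di- and tricarboxylates connect the citric acid cycle with the cytosol. All 4 measured members had ratios above 1, against 52.6% of all measured genes, and none of them was past the threshold. The intervals of Slc25a1 and Slc25a35 hold 1. With median of ratios scaling, their log2 ratios of (value + 1) were -0.0028 and -0.0020, so the shared direction depends on the scaling. Slc25a1, the citrate carrier that exports citrate for fatty acid synthesis, had 53415 and 50300 fragments, with values of 679 and 687. Its ratio was 1.01 (0.999 to 1.02), the tightest interval in the family. Slc25a10, the dicarboxylate carrier that exchanges malate and succinate for phosphate, was at 102 and 113 (1.10; 1.08 to 1.13). Slc25a11, the oxoglutarate carrier of the malate-aspartate shuttle, was at 70.0 and 83.1, with 5360 and 5922 fragments (1.19; 1.14 to 1.23). The citrate carrier was thus level between the libraries while both dicarboxylate exchangers were somewhat higher in ILN/ILN. Slc25a35, a carrier whose substrate is less settled, was at 33.9 and 34.4 (1.01; 0.960 to 1.07). Its relative Slc25a34 stayed under the minimum, at 0.489 and 0.865 with 62 and 102 fragments (1.77; 1.28 to 2.46). The oxodicarboxylate carrier Slc25a21 had 17 and 3 fragments.

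Slc25a20, the carnitine-acylcarnitine carrier, moves fatty acids bound to carnitine into the matrix for oxidation. It was at 89.0 in wild type and 111 in ILN/ILN, with 7383 and 8546 fragments, a ratio of 1.24 (1.20 to 1.28) that lay just under the threshold. On a list of 8 carnitine shuttle and acyl-CoA oxidation genes all 8 had ratios above 1, against 52.6% of all measured genes, and 2 passed the threshold in the higher direction, against 12.1%. The median log2 fragment ratio was 0.25 on this list and 0.02 over all measured genes. Acsl1, which activates fatty acids, was at 688 and 1045 (1.52; 1.51 to 1.53). Cpt1b, the muscle form of the outer carnitine palmitoyltransferase, was at 11.5 and 15.5, with 125 and 156 fragments (1.34; 1.05 to 1.71). The acyl-CoA dehydrogenase genes Acadl and Acadvl had ratios of 1.22 (1.19 to 1.24) and 1.20 (1.17 to 1.22). White adipocyte markers, a cell type rich in Acsl1, had 9 of 12 log2 ratios of (value + 1) above 0, with a median of 0.12, and their part in these ratios was not tested.

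Among carriers of amino acids 6 of 7 measured members had ratios above 1, against 52.6% of all measured genes. One of the 6, Slc25a48, was measured through its ILN/ILN value alone, so its direction was set by the minimum. Slc25a44 (gene identifier 229517), which carries branched-chain amino acids into mitochondria of brown fat and other tissues, was at 28.4 in wild type and 39.7 in ILN/ILN. The ratio of its fragments, 4311 and 5622, was 1.4 (1.35 to 1.46), the highest among carriers with a value of at least 10. The glutamate carrier Slc25a22 was at 48.9 and 52.3 (1.07; 1.03 to 1.11), and its paralog Slc25a18 had 1 fragment in each library, so the family's glutamate carrier in this tissue was nearly all Slc25a22. Slc25a38, which brings in glycine for haem synthesis, was at 9.12 and 9.87 (1.08; 0.971 to 1.21). The ornithine carrier Slc25a15 had 422 and 399 fragments (1.02; 0.883 to 1.17), and the carrier of basic amino acids Slc25a29 had 232 and 224, a ratio of 1.04. The counting intervals of both hold 1.

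Slc25a12 (gene identifier 78830; aralar, the calcium-regulated aspartate-glutamate carrier of the malate-aspartate shuttle) was the only measured carrier past the threshold in the lower direction. It had 825 fragments in wild type and 614 in ILN/ILN (0.799; 0.719 to 0.888), a ratio that lay at the edge of the threshold. Its liver-type paralog Slc25a13 (citrin) had 63 and 38 fragments (0.648; 0.421 to 0.984) and stayed under the minimum, at 0.435 and 0.282. Per length Slc25a12 had 13.7 times the fragments of Slc25a13 in wild type (10.6 to 18) and 16.9 times in ILN/ILN (12.2 to 24.2). Both aspartate-glutamate carriers were thus lower in ILN/ILN, whereas Slc25a11, the other carrier of the same shuttle, was higher. Of the shuttle's 4 enzymes, Mdh2 had a ratio of 1.19 (1.17 to 1.21) and Mdh1 1.01 (0.994 to 1.02), and Got1 had 0.853 (0.743 to 0.979) and Got2 0.959 (0.908 to 1.01), so the malate dehydrogenases were level or higher and the aspartate aminotransferases level or lower.

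Slc25a48 (gene identifier 328258) was placed with the amino acid carriers, although its substrate is less settled. It had 37 fragments in wild type and 70 in ILN/ILN, a ratio of 2.03 (1.35 to 3.11) and the widest interval among measured carriers. Slc25a2, a further ornithine carrier, had 0 fragments in wild type, where a count of 0 allows up to 3, and 6 in ILN/ILN.

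Carriers of cofactors, coenzymes and pyrimidine nucleotides differed little apart from Slc25a42. This carrier (gene identifier 73095) exchanges coenzyme A and adenine nucleotides across the inner membrane, and it was at 12.8 in wild type and 17.1 in ILN/ILN. It had 1923 and 2401 fragments, a ratio of 1.34 (1.26 to 1.42). Slc25a16, a family member also linked to coenzyme A in the matrix, was at 17.1 in both libraries (0.998; 0.943 to 1.06), so these carriers behaved differently. Slc25a17, which sits in the peroxisome membrane and carries coenzyme A and related cofactors, was at 22.9 and 25.7 (1.12; 1.05 to 1.19). Further members of this group had intervals that hold 1, namely the pyrimidine nucleotide carriers Slc25a33 (1.08; 0.988 to 1.19) and Slc25a36 (1.11; 0.955 to 1.30), the S-adenosylmethionine carrier Slc25a26 (1.09; 0.975 to 1.21) and the folate and flavin carrier Slc25a32 (0.989; 0.80 to 1.22). Of the 8 measured members of the group 6 had ratios above 1, against 52.6% of all measured genes, with a median log2 fragment ratio of 0.12.

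Iron and glutathione carriers were close to level. Slc25a39, which brings glutathione into the matrix, was the most abundant of them, at 170 and 168 (0.988; 0.964 to 1.01), and its paralog Slc25a40 had 38 and 22 fragments. Mitoferrin 2, encoded by Slc25a28 and expressed in many tissues, was at 27.6 and 27.8 (1.01; 0.945 to 1.07). Mitoferrin 1, encoded by Slc25a37 and known for iron import in developing red cells, was at 3.93 and 3.51, with 780 and 649 fragments (0.894; 0.804 to 0.993). The erythroid markers were lower by more than that. All 5 measured ones were lower past the threshold, against 15.7% of all measured genes, although Ahsp among them was measured through wild type alone. Alas2, the red cell enzyme that opens haem synthesis, was at 56.7 and 29.2 (0.515; 0.490 to 0.541). Slc25a38, the glycine carrier that serves the same pathway, was not lower. Whether the erythroid difference contributes to the Slc25a37 ratio was not tested.

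The uncoupling protein-like members were low. Slc25a30, a relative of the uncoupling proteins known from kidney, was at 6.59 and 8.0, with 522 and 590 fragments (1.21; 1.08 to 1.37). Slc25a14 (Ucp5) had 78 and 77 fragments (1.06; 0.764 to 1.47), and Slc25a27 (Ucp4), known from brain, had 51 and 37 and stayed under the minimum. The true uncoupling proteins belong to the same family but carry other symbols, so they are outside the 44 members. Ucp1, the proton leak of brown and beige fat, had a ratio of 0.435 (0.412 to 0.459), Ucp2 of 0.855 (0.841 to 0.869) and Ucp3, the muscle form, of 1.43 (1.36 to 1.5). Of 5 measured skeletal muscle markers 4 had ratios below 1, with a median log2 fragment ratio of -0.24, while Myl1 was at 37.7 and 51.4. Past the threshold in the lower direction were 2 of the 5, Mylpf and Tnnc2, against 15.7% of all measured genes. Both passed the minimum through wild type alone, so their direction was set by the minimum. The part of muscle in the ratios of Ucp3, Cpt1b and Slc25a4 was not tested. Ucp1 lay further from a ratio of 1 than any measured Slc25a gene. Of 6 measured brown adipocyte markers, Ucp1 included, 4 had fragment ratios above 1 and 2 below. By log2 ratios of (value + 1), 3 were above 0 and 3 below. For 2 of these markers, Prdm16 and Ppargc1a, the libraries used different estimates. Summed values of the list were 1967 and 1911, and the part of these markers in the Ucp1 ratio was not tested.

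Of the members with other or unassigned roles, Slc25a46 (gene identifier 67453), an outer membrane protein involved in mitochondrial dynamics, was at 1.59 and 2.11, with 332 and 410 fragments (1.33; 1.14 to 1.54). Slc25a45, whose substrate is less settled, was at 10.7 and 9.05 (0.847; 0.767 to 0.935). Slc25a47, known from liver, had 135 and 148 fragments (1.18; 0.926 to 1.5). Slc25a43 had 8 and 4. Of the 7 family members measured under other symbols, the uncoupling proteins included, 3 had ratios above 1 and 4 below. Mcart6, the older symbol of Slc25a53, was lower past the threshold, with 59 and 26 fragments (0.473; 0.286 to 0.763) and values of 1.38 and 1.02, both taken from the derived estimate. The others had Mtch1 at a ratio of 0.987 (0.957 to 1.02), Mtch2, an insertase of the outer membrane, at 1.08 (1.04 to 1.11) and Mcart1, the older symbol of the NAD carrier Slc25a51, at 1.19 (1.14 to 1.23).

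The 10 members under the minimum had between 0 and 102 fragments per library. The 3 with most fragments were Slc25a34, Slc25a13 and Slc25a27. Their levels were too low for this depth to resolve a difference in most cases, and the intervals of 4 of them, Slc25a2, Slc25a13, Slc25a21 and Slc25a34, did not hold 1.

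The carriers as a group lay slightly above the middle of all genes. Of 34 measured carriers 26 had fragment ratios above 1 and 8 below, and 52.6% of all measured genes were above. The median log2 fragment ratio was 0.10 for the carriers and 0.02 for all measured genes, and that of (value + 1) was 0.07 and 0.02. The counting interval lay above 1 for 14 carriers, below 1 for 5 and held 1 for 15, while 33.1% of all measured genes lay above and 29.2% below. Among the 11 carriers that reached a value of 50 in one or both libraries, 9 had ratios above 1, and they ranged from 0.978 (Slc25a5) to 1.27 (Slc25a23). Of the 1715 genes at that level 49.8% had ratios above 1. Inside the threshold were 27 of the 34 carriers (79.4%), near the share of 72.0% over all measured genes. The median wild-type value was 12.0 for the measured carriers and 8.76 for all measured genes. These counts describe 2 libraries and were not tested.

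**Figure D4:**
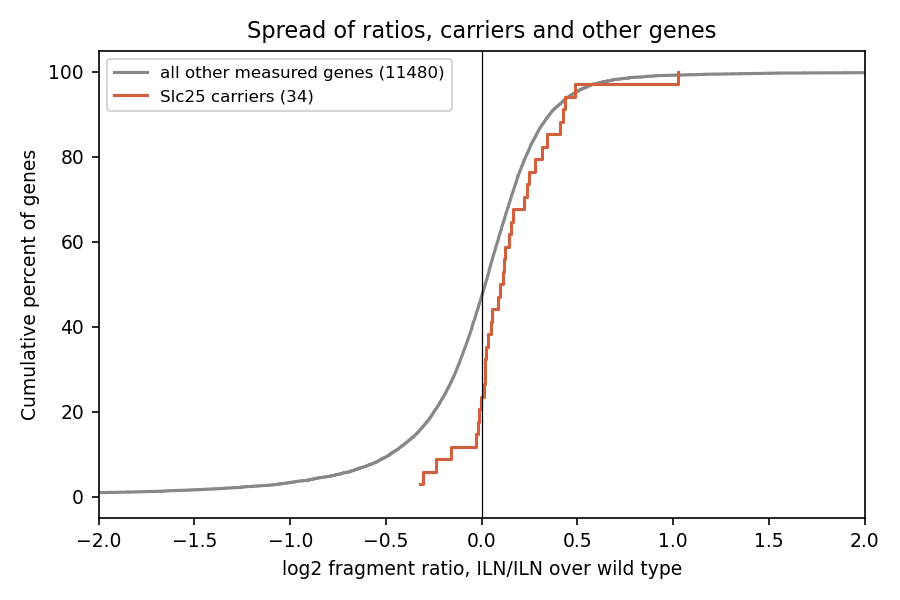
Cumulative percent of genes by log2 fragment ratio, ILN/ILN over wild type, for the 34 measured carriers (orange) and 11480 other measured genes with fragments in both libraries (grey, drawn from -2 to 2). The lower and upper quartiles of the carriers are 0.01 and 0.24, against -0.18 and 0.19 for all measured genes.

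Other mitochondrial genes showed a mixed picture beside the carriers, and 52.6% of all measured genes had ratios above 1. Of 12 measured genes for other transport proteins of the inner and outer membranes 8 had ratios above 1, with a median log2 fragment ratio of 0.13. The porin gene Vdac1, the main pore of the outer membrane, was at 166 and 207, just under the threshold, and Sfxn1, the serine transporter of the inner membrane, at 85.1 and 110 (1.29; 1.26 to 1.32). Vdac3, a further porin gene, had 718 and 1104 fragments, past the threshold (1.65; 1.5 to 1.82), and values of 119 and 142, both taken from the derived estimate. Of 13 genes for the import of carrier proteins 7 were above 1 and 6 below, with a median of 0.03. The small chaperones Timm8b (0.849; 0.817 to 0.882) and Timm9 (1.23; 1.04 to 1.45) differed in direction. Timm22 was the only import gene past the threshold, with 587 and 390 fragments (0.714; 0.626 to 0.812). Its values went the other way, at 12.6 and 14.2, both taken from the derived estimate. Of 16 ATP synthase genes 9 were above 1 and 7 below, with a median of 0.01, and Atp5l, a small membrane subunit, had a ratio of 1.39 (1.37 to 1.42). The import machinery and ATP synthase were thus centred near 0 while the carnitine shuttle list stood at 0.25.

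Enzymes that make, use or follow exported citrate had a median log2 fragment ratio of 0.15, with 4 of 6 above 1. Cs, which makes citrate in the matrix, was at 285 and 366 (1.28; 1.26 to 1.30), and Me1, the malic enzyme of the cytosol, at 285 and 334 (1.17; 1.16 to 1.19). Acly, which splits citrate in the cytosol, was lower, with 67124 and 42017 fragments (0.672; 0.664 to 0.681). Its values were 385 and 276, both taken from the derived estimate. Slc25a1, which links these enzymes across the membrane, was at 1.01 between them. Of 10 regulators of mitochondrial genes 4 were above 1 and 6 below. Ppara, the fatty acid-sensing receptor, had a ratio of 1.46 (1.38 to 1.54), whereas Esrra was at 0.920 (0.863 to 0.981). Ppargc1a, a coactivator of mitochondrial genes, had 156 and 243 fragments (1.67; 1.36 to 2.06). It passed the minimum through its ILN/ILN value of 2.12 alone, which came from the derived estimate. Its estimates from fragments were 0.509 in wild type and 0.851 in ILN/ILN. Haem and iron-sulphur genes were divided, with 6 of 11 above 1 and a median of 0.08.

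**Figure D5:**
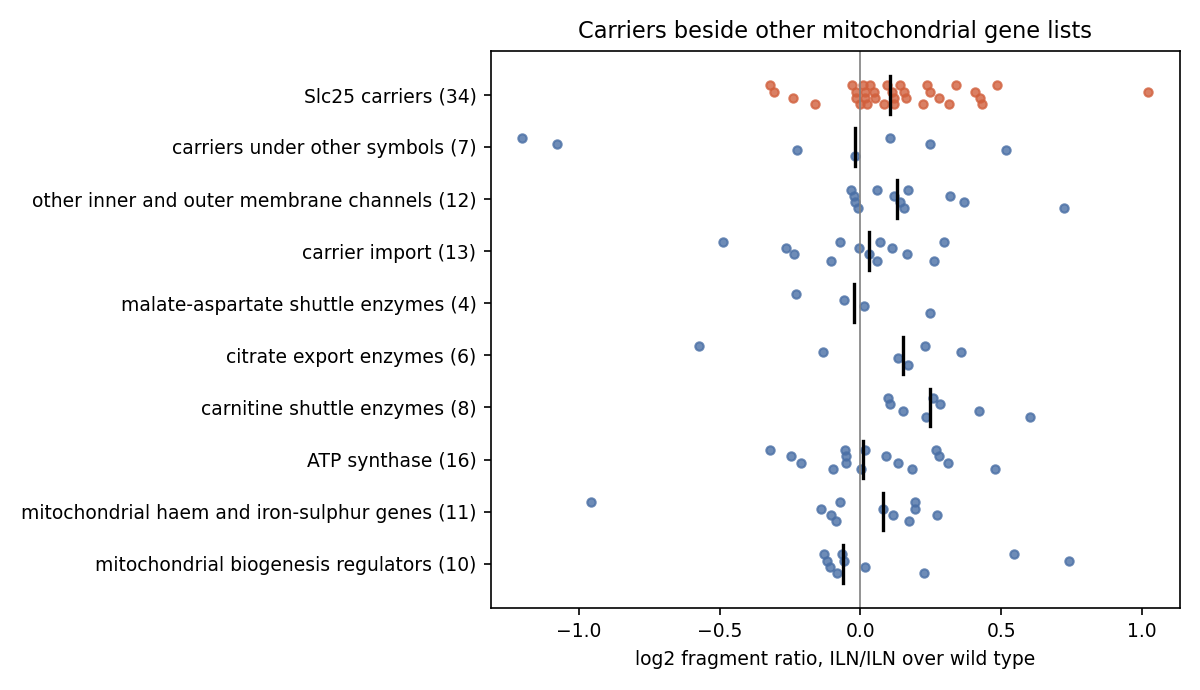
Log2 fragment ratios, ILN/ILN over wild type, of the measured Slc25 carriers (orange) and of other mitochondrial gene lists (blue), 1 point per gene, with a black bar at each median. The bar is at 0.10 for the carriers, 0.25 for the carnitine shuttle list and 0.01 for ATP synthase.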

How the data were processed

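The authors deposited 1 gene table per library, made from 2 sequencing lanes per sample per the labels' protocols. Per the submitters' processing notes, TopHat 1.4.1, Bowtie 0.12.3, bedtools and build mm9 are named, with no role given. The preparation marked strand, per the labels' protocols. The sources used here do not name the counting program, its annotation, its use of strand or its handling of reads matching several places. The values show that the deposited FPKM-like value is the deposited length-scaled signal over a library constant, and that the deposited log2 column holds log2(value + 1). The deposited signal was the larger of 2 estimates in 100% of rows. The original estimate times the gene length was whole within 0.01 in 100% of values above 0, and this number is called fragments, although whether it counts reads or pairs is not stated. Other deposited columns, such as length and isoform number, were used as given.

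Ratios, intervals and medians were computed with numpy 2.4.6, scipy 1.17.1 and pandas 2.3.3 and tested on simulated data. With 1 library per genotype no p-value was computed. The members and all gene lists were chosen with earlier results of these data known. Every member is in the counts and medians, and the values of 1 measured member are not reported here. Members past a log2 fragment ratio of 0.32 were given in full, up to 4 genes per other list could be named by the size of their log2 ratio, and Ucp1, Ucp2, Ucp3, Mtch1 and Mtch2 were named always. Counting precision is limited to 3 fragments at a count of 0. Intervals cover counting error alone, since each genotype had 1 library. Where fragments are not independent molecules, the intervals are too narrow for counting error as well. Alternatives covered the pseudocount, scaling, minimum and estimate. Skeletal muscle and liver marker lists were also run. Their summed values were 52.2 and 63.5 for muscle and 39.5 and 40.7 for liver. Of the muscle genes 4 of 5 measured ones were lower, among them Mylpf and Tnnc2, which were measured through wild type alone. All 3 measured liver genes had ratios above 1 with counting intervals that hold 1, and Serpina1a among them was measured through ILN/ILN alone.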

Additional observations from a re-analysis of the deposited data

How the results depend on the processing

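No paired analysis was possible because each genotype had 1 library. The settings were run on ratios of value plus a pseudocount, and the estimate from fragments alone also had a pseudocount of 1. With 3 scalings, pseudocounts of 1 and 5, the estimate from fragments alone, and minimums of 1, 5 and none, 0 of the carriers passed 1.5-fold in either direction. By the plain ratio of fragments, with no pseudocount, the measured Slc25a48 did pass it, at 2.03. Some members under the minimum also did, such as Slc25a34 at 1.77 and Slc25a21 at 0.190. With a pseudocount of 0.1 there was 1 higher carrier (Slc25a48). With that pseudocount and no minimum, a setting chosen after seeing the data, 3 were higher (Slc25a48, Slc25a34 and Slc25a2) and 1 lower (Slc25a21). The median log2 ratio of the carriers stayed above 0 in these settings, from 0.04 with no minimum to 0.10 from fragments alone. With median of ratios scaling 22 carriers were above 0 and 12 below, against 25 and 9 as reported. Of single carriers, 2 changed sign and moved by more than counting error. Slc25a25 was at 0.38 from fragments alone, where the derived estimate is left out, and Slc25a1 at -0.0028 with median of ratios scaling, against 0.02 as reported. Leaving out a library was not possible with 1 per genotype. Depth limits the members with few fragments.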

Other observations

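RefSeq promoter windows around gene starts (GRCm38.p6) were given for 27 of the 34 measured carriers and searched on both strands for short motifs. The GC box GGGCGG was in 25 of 27 (92.6%), against 69.2% of 9196 other measured genes, and the CCAAT box CCAAT in 15 (55.6%, against 42.4%). The ETS motif CCGGAAG was in 6 (22.2%, against 20.3%), among them Slc25a3, Slc25a4 and Slc25a20, and the E-box CACGTG in 5 (18.5%, against 11.8%), among them Slc25a1. The core GCATGCGC of the NRF1 motif was in 0 of 27 (against 5.95%) and the oestrogen-related receptor motif AAGGTCA in 0 of 27 (against 3.98%). A gene counted as holding a motif if any of its windows did, so the shares depend on the number of windows per gene. These are letter matches and were not tested.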
